A study of Mus musculus with 2 samples.

Results

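Epithelial microRNAs were examined in embryonic midbrain of B6NCrl mice (Mus musculus) at day 16.5 of development. The genes were the 5 of the mir-200 family (Mir200b, Mir200a and Mir429 on chromosome 4, Mir200c and Mir141 on chromosome 6), Mir203 and Mir205, which make 7 of the 1973 miRNA genes counted. They were selected by name from earlier results of these same libraries, in which the gap of the mir-200 genes between the libraries had been seen. Their levels and ratios are therefore descriptions, and no test is attached to them. Small RNA with inserts below 30 nt had been sequenced in 2 libraries, biological replicates of 1 group of healthy animals, each from midbrains pooled over male and female embryos. Replicate 2 was made from 37 embryos, and for replicate 1 the sources used here name a pool without its size. No treatment, mutant or second tissue was part of the series.

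MicroRNAs are cut from hairpin transcripts and guide repression of mRNAs that pair with their seed, bases 2 to 8 of the mature strand. The mir-200 family is known for holding epithelial cells in their state by repressing the transcription factors Zeb1 and Zeb2, which in turn bind E-box motifs in the promoters of the mir-200 clusters and shut them down. In mice the family is also known from olfactory epithelium and its neurons, the pituitary and other endocrine tissue. Mir203 restrains the p63 factor and self-renewal in stratified epidermis, and Mir205 is abundant in basal cells of skin and glands.

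The mature strands usually loaded from these hairpins are shown because their seeds split the mir-200 family into 2 groups that cross the chromosomal clusters. Sequences are from RefSeq (GRCm38.p6), 5′ to 3′, with the seed in capitals, and all 7 genes had an entry.

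miR-200b-3p: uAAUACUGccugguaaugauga
miR-429-3p: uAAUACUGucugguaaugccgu
miR-200c-3p: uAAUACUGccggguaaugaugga
miR-200a-3p: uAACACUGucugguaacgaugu
miR-141-3p: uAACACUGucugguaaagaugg
miR-203-3p: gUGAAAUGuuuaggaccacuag
miR-205-5p: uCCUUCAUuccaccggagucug

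Mir200b, Mir429 and Mir200c share the seed AAUACUG, and Mir200a and Mir141 share AACACUG. The seeds of the groups differ by U4C from miR-200b-3p to miR-200a-3p, with positions counted from 1 at the 5′ end. Within a group the closest pairs, miR-200b-3p with miR-200c-3p and miR-200a-3p with miR-141-3p, differ at 2 of 22 positions, all outside the seed. No other gene in the RefSeq miRNA table has a mature strand with any of these 4 seeds. The counts are per gene, so they do not tell which arm of a hairpin was read.

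These hairpins share only short runs of bases with hairpins at other loci, and unique placement of reads in the genome was not tested. Hairpins overlapping the same locus were left out, so mir-203b (Gm51289), on the strand opposite Mir203, was not compared. The longest run of bases shared with a RefSeq miRNA hairpin at another locus, on either strand, was 17 nt, between Mir200a and Mir141. Next were 14 nt between Mir200b and Mir200c and 14 nt between Mir205 and Mir6397. The runs were 13 nt for Mir429 and 11 nt for Mir203. Each run is shorter than the annotated mature strands of the 7 genes, which are 21 to 23 nt long. Reads that aligned to several places anywhere in the genome are outside the gene counts, at 35.3% of all reads in replicate 1 and 36.5% in replicate 2.

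On mm10 the chromosome 4 hairpins lie on the minus strand, in transcription order Mir200b (156055681 to 156055750), Mir200a (156054896 to 156054985) and Mir429 (156053905 to 156053987), with 695 and 908 bases between neighbours. All 3 fall in an intron of Ttll10 and within the noncoding transcript Gm13648 of the same strand, where Mir200b and Mir200a are intronic and Mir429 is inside an exon. On chromosome 6 Mir200c (124718322 to 124718390) and Mir141 (124717914 to 124717985) are 336 bases apart on the minus strand, in an intron of the noncoding transcript Gm15884, and Mir141 also partly overlaps an exon of Gm29008. Mir203 lies on the plus strand of chromosome 12 (112130880 to 112130955) in no other GENCODE M21 gene, and Mir205 on the minus strand of chromosome 1 (193507463 to 193507530) in an exon of the lincRNA 4631405K08Rik.

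The window around the start of Gm13648, 4052 bases upstream of the Mir200b hairpin, is shown because this transcript spans the chromosome 4 hairpins. It covers 250 bases before and 50 after the RefSeq start (GRCm38.p6, minus strand, chr4:156059753-156060052), with matches to the E-box letters CACCTG, searched on both strands as CACCTG or CAGGTG, in capitals.

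Gm13648 promoter: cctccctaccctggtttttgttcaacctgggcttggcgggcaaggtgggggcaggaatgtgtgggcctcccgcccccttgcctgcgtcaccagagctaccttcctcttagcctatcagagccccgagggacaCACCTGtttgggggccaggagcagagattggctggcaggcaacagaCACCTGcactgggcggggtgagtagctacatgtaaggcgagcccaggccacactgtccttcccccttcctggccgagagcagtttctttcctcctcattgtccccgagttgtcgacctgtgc

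The 2 matches begin 118 and 72 bases before the start. Of the 32851 RefSeq promoter windows of this length, 20.2% hold at least 1 match and 2.88% hold 2 or more. The window of Mir205hg, which RefSeq names as the host of Mir205, holds 1. Gm15884, which spans the chromosome 6 hairpins, had no window in the sequences used here and was not searched. Binding was not measured in this series, and a match is a run of letters only.

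All 7 genes were present in both libraries, at low to moderate levels. Levels are given as CPM, each gene's sense-strand reads scaled to the summed sense-strand reads of all miRNA genes, with exact 95% binomial intervals that cover counting error only. The depth behind them was 6151299 sense reads in replicate 1 and 5312642 in replicate 2, at which a count of 0 would have allowed up to 0.488 and 0.565 CPM. Together the 7 genes held 0.133% of miRNA reads in replicate 1 and 0.0689% in replicate 2. All had 10 or more reads in both libraries, as did 411 of the 1973 genes, which are called detected below.

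**Figure D1:**
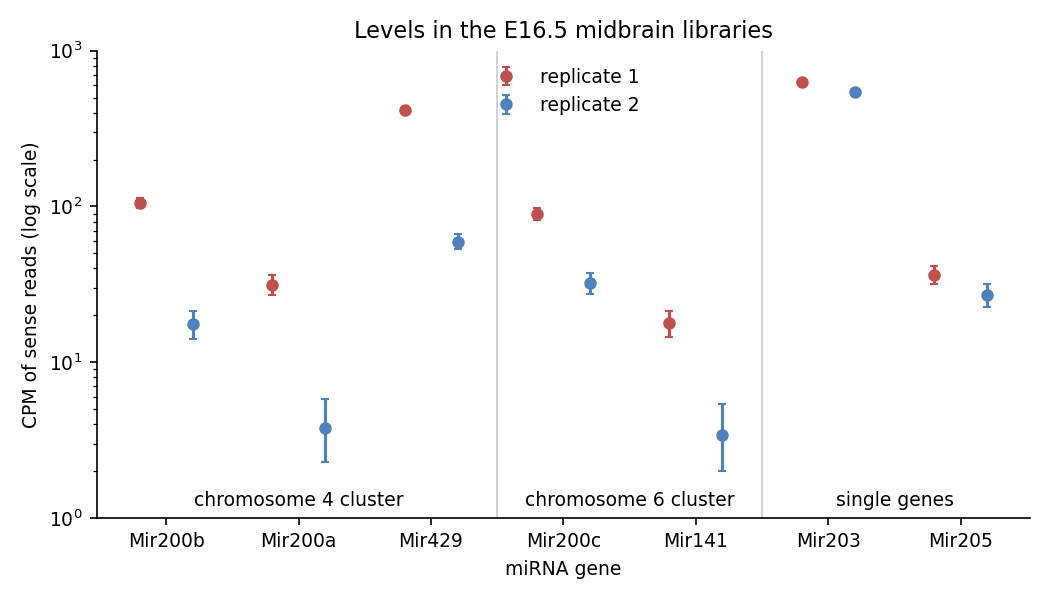
Sense-strand CPM (log axis) of each gene in replicate 1 (red, left) and replicate 2 (blue, right), with exact 95% binomial intervals for counting error. The intervals of the libraries are apart for the 5 mir-200 genes and for Mir203, and meet narrowly for Mir205, at 31.7 CPM.

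Mir429 was the most abundant of the mir-200 family, and the gap between the libraries was wide. It had 2580 reads, or 419 CPM (403 to 436), in replicate 1 and 316 reads, or 59.5 CPM (53.1 to 66.4), in replicate 2. The level in replicate 1 was 7.05-fold that in replicate 2 (exact 95% interval of the ratio 6.27 to 7.95). Its neighbour Mir200b, which carries the same seed, had 648 reads (105 CPM) in replicate 1 and 93 (17.5 CPM) in replicate 2, a 6.02-fold gap (4.84 to 7.56). Mir200a, the chromosome 4 gene with the other seed, had 193 reads (31.4 CPM) in replicate 1 and 20 (3.76 CPM) in replicate 2, an 8.33-fold gap (5.25 to 13.95). The 3 intervals of the ratio overlap one another.

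The chromosome 6 genes were also higher in replicate 1. Mir200c had 550 reads (89.4 CPM, 82.1 to 97.2) in replicate 1 and 170 reads (32.0 CPM, 27.4 to 37.2) in replicate 2, a 2.79-fold gap (2.35 to 3.34). Mir141 had 109 reads (17.7 CPM) in replicate 1 and 18 (3.39 CPM) in replicate 2, a 5.23-fold gap (3.16 to 9.15). The interval of Mir200c lies below those of the 3 chromosome 4 genes, whereas that of Mir141 overlaps theirs and, narrowly, that of Mir200c.

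Mir203 and Mir205 differed far less. Mir203 was the most abundant of the 7 genes in each library, with 3857 reads (627 CPM, 607 to 647) in replicate 1 and 2900 reads (546 CPM, 526 to 566) in replicate 2. The ratio was 1.15-fold (1.09 to 1.21). Mir205 had 223 reads (36.3 CPM) in replicate 1 and 143 (26.9 CPM) in replicate 2, a ratio of 1.35-fold (1.09 to 1.67). The ratio intervals of these genes lie above 1 and below those of all 5 mir-200 genes.

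In mean CPM over the 2 libraries (± SD, n = 2), Mir203 stood at 586 ± 57.4, Mir429 at 239 ± 255, Mir200b at 61.4 ± 62.1, Mir200c at 60.7 ± 40.6, Mir205 at 31.6 ± 6.60, Mir200a at 17.6 ± 19.5 and Mir141 at 10.6 ± 10.1. Mir203 and Mir429 lay further apart than the larger of their SDs, while below Mir203 no neighbours in this order did. By library, replicate 1 gave this same order, and in replicate 2 Mir429 was followed by Mir200c, Mir205 and Mir200b. Scaled per kilobase of hairpin, Mir200c (880 CPM per kb) and Mir200b (877 CPM per kb) changed places and the rest of the order of mean levels stayed. Among all 1973 genes Mir203 ranked 117 and Mir429 137 by level in replicate 1, against 125 and 241 in replicate 2.

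The mir-200 genes had the 5 highest ratios of all detected genes. On the log2 scale, with 0.5 reads added to each count, replicate 1 over replicate 2 was 3.03 for Mir200a, 2.82 for Mir429, 2.58 for Mir200b, 2.35 for Mir141 and 1.48 for Mir200c, against 0.43 for Mir205 (place 46) and 0.20 for Mir203 (place 110). With 1 library on each side, a gene was called by size, at 2-fold or more. Of the 7 genes, 5 were called higher in replicate 1 and 0 lower, where 1.95% of the 411 detected genes (8 genes) were called higher and 0.73% (3 genes) lower. Since this gap was known when the genes were chosen, nothing is read from the count. The median log2 ratio was 2.35 over the 7 genes and 0.06 over all detected genes, and in the 404 detected genes outside the set the ratios had an SD of 0.34 and reached 1.12 at most. In whole-tissue RNA, fewer cells of a type and less RNA per cell cannot be told apart. The difference between the pools is 1 value per gene with no replicate check.

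**Figure D2:**
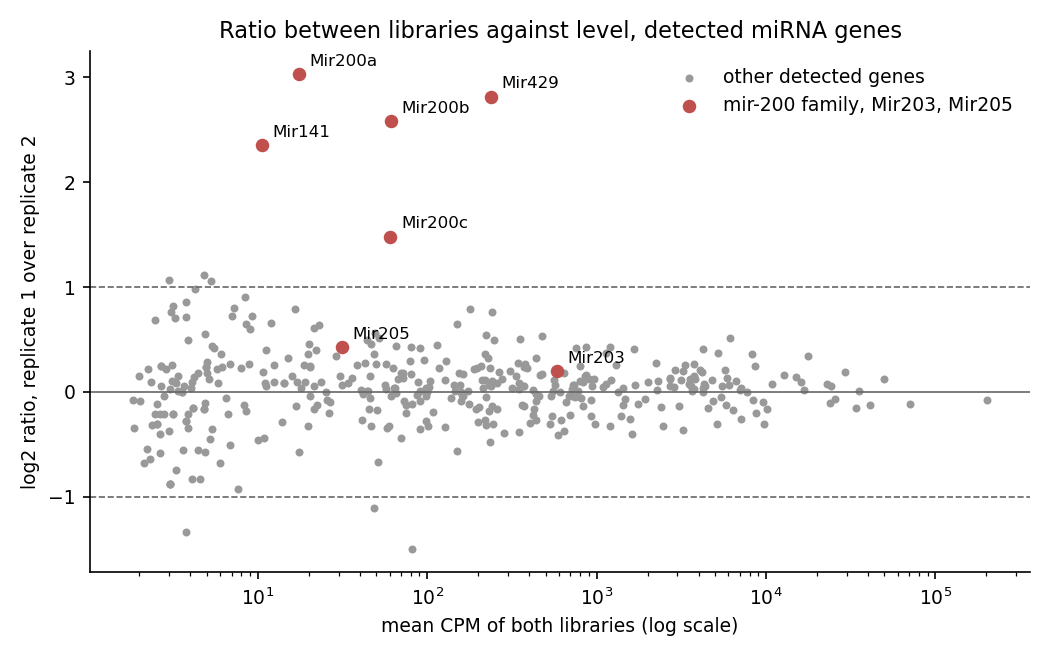
Log2 ratio of replicate 1 over replicate 2 against mean CPM (log axis) for the 411 detected genes, with dashed lines at 2-fold in either direction. The 5 mir-200 genes (red) lie between 1.48 and 3.03, above every other gene, while Mir205 and Mir203 lie within the cloud of other genes (grey).

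Fold and absolute difference rank the genes differently. Replicate 1 minus replicate 2 was 359.9 CPM for Mir429, 87.8 CPM for Mir200b, 81.2 CPM for Mir203, 57.4 CPM for Mir200c, 27.6 CPM for Mir200a, 14.3 CPM for Mir141 and 9.34 CPM for Mir205. In added CPM, Mir203 thus stood beside Mir200b, although its fold was the smallest of the 7. Beside abundant miRNAs such differences are small, and 46 of the 404 other detected genes differed in CPM by more than Mir429 did, in either direction.

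**Figure D3:**
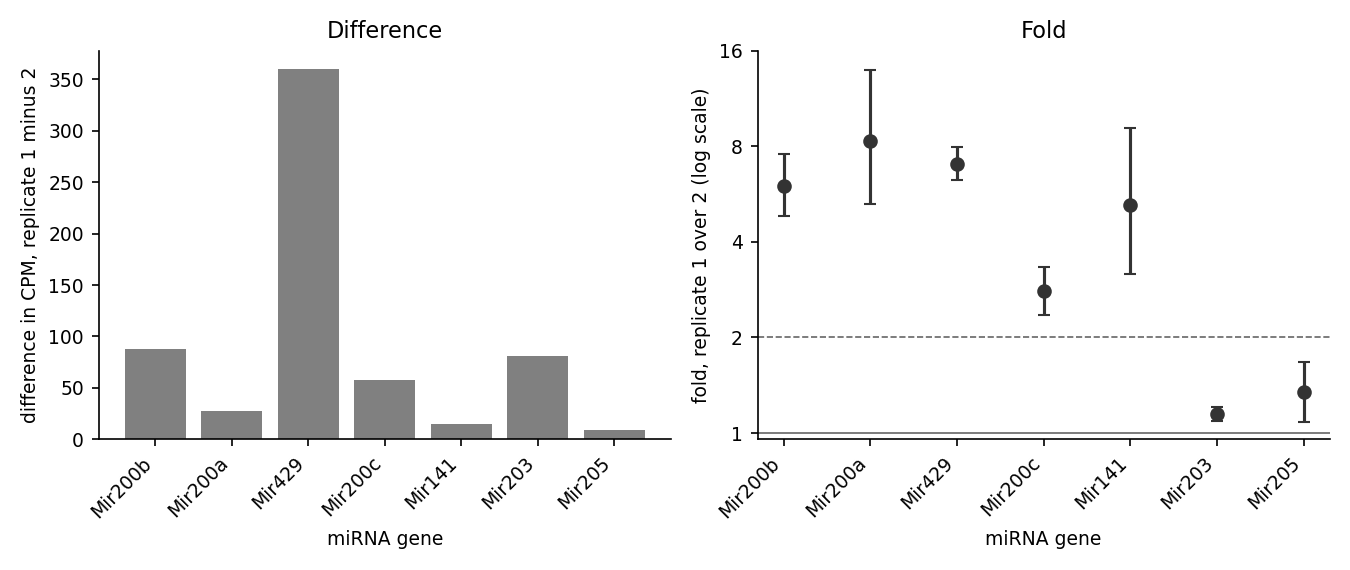
Left, difference in CPM (replicate 1 minus replicate 2) for each gene, from 9.34 for Mir205 to 359.9 for Mir429. Right, the fold of replicate 1 over replicate 2 (log axis) with exact 95% intervals, with lines at 1 and at 2-fold, showing Mir203 and Mir205 near 1 and the mir-200 genes from 2.79 to 8.33.

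Within the chromosome 4 cluster the genes had similar shares in both libraries. Mir429 made up 75.4% of the cluster's reads in replicate 1 (73.9 to 76.9) and 73.7% in replicate 2 (69.2 to 77.8). Mir200b made up 18.9% in replicate 1 (17.6 to 20.3) and 21.7% in replicate 2 (17.9 to 25.9), and Mir200a 5.64% in replicate 1 (4.89 to 6.47) and 4.66% in replicate 2 (2.87 to 7.11). Each pair of intervals overlaps, with 3421 reads in the cluster in replicate 1 and 429 in replicate 2. Overlap does not show that the shares were equal, and Mir200a had only 20 reads in replicate 2. The 3 hairpins lie on 1 annotated transcript, and their shares differed from one another by far more than they did between libraries. Whether they were transcribed together was not tested.

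The balance between the summed clusters differed between the libraries. The chromosome 4 cluster summed to 556 CPM in replicate 1 and 80.8 CPM in replicate 2, a 6.89-fold gap (6.23 to 7.63). The chromosome 6 cluster summed to 107 CPM in replicate 1 and 35.4 CPM in replicate 2, a 3.03-fold gap (2.57 to 3.58). The chromosome 6 cluster therefore held 16.2% of the mir-200 family's reads in replicate 1 (15.0 to 17.3) and 30.5% in replicate 2 (26.9 to 34.3), intervals that do not meet. Inside it Mir200c held 83.5% of reads in replicate 1 and 90.4% in replicate 2, so the cluster's sum mostly follows that gene. The ratio interval of Mir141, 3.16 to 9.15, overlaps those of Mir200c and of the 3 chromosome 4 genes. Mir141 held 16.5% of the cluster's reads in replicate 1 (13.8 to 19.6) and 9.57% in replicate 2 (5.77 to 14.7). These intervals overlap slightly. How far such shares vary between pools of embryos cannot be judged from 1 library each.

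**Figure D4:**
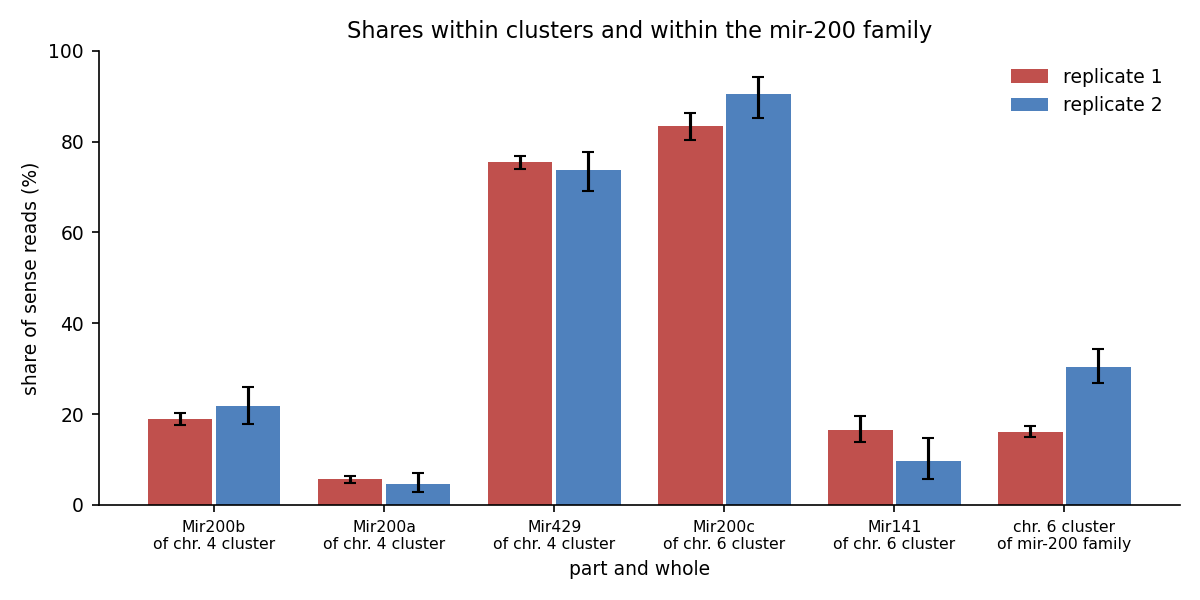
Share of sense reads (%) held by each gene within its cluster, and by the chromosome 6 cluster within the mir-200 family, in replicate 1 (red, left) and replicate 2 (blue, right), with exact 95% binomial intervals. The shares inside the chromosome 4 cluster are close in both libraries, and that of the chromosome 6 cluster in the family is 16.2% in replicate 1 and 30.5% in replicate 2.

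Grouped by seed, the family's reads split in similar shares in both libraries. Genes with the seed AAUACUG summed to 614 CPM in replicate 1 and 109 CPM in replicate 2, and those with AACACUG to 49.1 CPM in replicate 1 and 7.15 CPM in replicate 2. The AACACUG genes held 7.40% of the family's reads in replicate 1 (6.62 to 8.25) and 6.16% in replicate 2 (4.39 to 8.36). The share in replicate 2 rests on 38 reads. Inside the AAUACUG group the split was not alike, as Mir200c had 550 of 3778 reads in replicate 1 and 170 of 579 in replicate 2. The whole family came to 663 CPM in replicate 1 and 116 CPM in replicate 2, a 5.71-fold gap (5.25 to 6.23). It held 4080 of the 8160 reads of the 7 genes in replicate 1 and 617 of 3660 in replicate 2, and Mir203 alone held 47.3% of them in replicate 1 and 79.2% in replicate 2.

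Genes outside the set with the most similar ratio had few reads. Likeness was the distance in log2 ratio from the set's median of 2.35, over 2 libraries, and the 5 nearest were Mir184 (1.12), Mir378d (1.07), Mir7655 (1.05), Mir6897 (0.98) and Mir147 (0.91). They had between 25 and 68 reads in replicate 1 and between 10 and 31 in replicate 2. The closest, Mir184, had 41 reads in replicate 1 and 16 in replicate 2, with a ratio interval of 1.22-fold to 4.22-fold. It was 1.23 log2 units from the set's median. As the mir-200 genes held the 5 highest ratios, the 5 genes named here simply have the next highest. Of the set itself, Mir205 (0.43) and Mir203 (0.20) lay further from the median than these genes.

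miRNAs that mark other cells of the midbrain and its surroundings were compared between the libraries in 7 lists of 56 entries, of which 53 were analysed and 46 detected. None of these 46 was called higher in replicate 1, against 1.95% of detected genes, a share that includes the mir-200 genes. Of the 404 detected genes outside the set, 3 were called higher and 3 lower, so none in 46 is near the share outside the set. The lists were also chosen with earlier results of these libraries known, and nothing is read from the count. In the lists 1 was called lower, Mir1912 of the choroid plexus list, named after its value was seen. It had 2.11 CPM in replicate 1 against 5.46 CPM in replicate 2. The list of neurons and progenitors, the cells of the labelled tissue, summed to 52213 CPM in replicate 1 and 52576 CPM in replicate 2. These sums leave out reads that aligned to several places. In this list 12 of 14 analysed genes were detected, with a median log2 ratio of -0.14 and 5 ratios above 0. Its 2 highest members held most of both sums, so the sums say little about the rest of the list. Mir149 had 24868 CPM in replicate 1 against 26129 CPM in replicate 2. Mir137, a regulator of neuronal differentiation, had 15865 CPM in replicate 1 against 14350 CPM in replicate 2. Far lower were Mir9-3, with 363 CPM in replicate 1 against 447 CPM in replicate 2, and Mir124a-1, with 5.36 CPM against 4.71 CPM.

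The list of multiciliated and other epithelia had nearly equal levels in the libraries, with 8 of 10 genes detected and log2 ratios between -0.13 and 0.15, and summed to 3387 CPM in replicate 1 and 3406 CPM in replicate 2. Mir449a, which acts in multiciliated cells, had 2294 CPM in replicate 1 against 2272 CPM in replicate 2, and Mir34c, of the same seed family, had 789 CPM in replicate 1 against 825 CPM in replicate 2. The choroid plexus list, the secretory epithelium of the ventricles, had 6 of 6 genes detected, log2 ratios between -1.34 (Mir1912) and 0.41 (Mir1298), and summed to 4731 CPM in replicate 1 and 3816 CPM in replicate 2. Its leaders were Mir204 with 2444 CPM in replicate 1 against 2016 CPM in replicate 2, and Mir1298 with 1907 CPM in replicate 1 against 1435 CPM in replicate 2. The median log2 ratio was -0.01 for multiciliated and other epithelia and 0.12 for choroid plexus.

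The neuroendocrine and sensory list, whose cells also use mir-200 genes, had 7 of 7 genes detected and a median log2 ratio of -0.13, in a range of -0.41 to 0.42. It summed to 6344 CPM in replicate 1 and 5913 CPM in replicate 2. Mir7b led with 3462 CPM in replicate 1 against 3018 CPM in replicate 2. Next was Mir7-1, of the same family, with 863 CPM in replicate 1 against 646 CPM in replicate 2. Ratios were above 0 for 3 of the 7 genes, all of the mir-7 family. They were below 0 for Mir183 (-0.41), Mir96 (-0.29), Mir182 (-0.23) and Mir375 (-0.13). The sum of endothelium, mural cells and mesenchyme was 33951 CPM in replicate 1 and 35236 CPM in replicate 2 (median log2 ratio 0.06), led by Mir126a of endothelial cells and Mir143 of smooth muscle. That of blood was 410 CPM in replicate 1 and 487 CPM in replicate 2 (-0.20), led by the erythroid Mir451a and the myeloid Mir223, and that of muscle 40.8 CPM in replicate 1 and 38.8 CPM in replicate 2 (0.04), led by Mir206 and Mir208b. Whether the makeup of the dissected tissue had a part in the mir-200 gap was not tested.

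**Figure D5:**
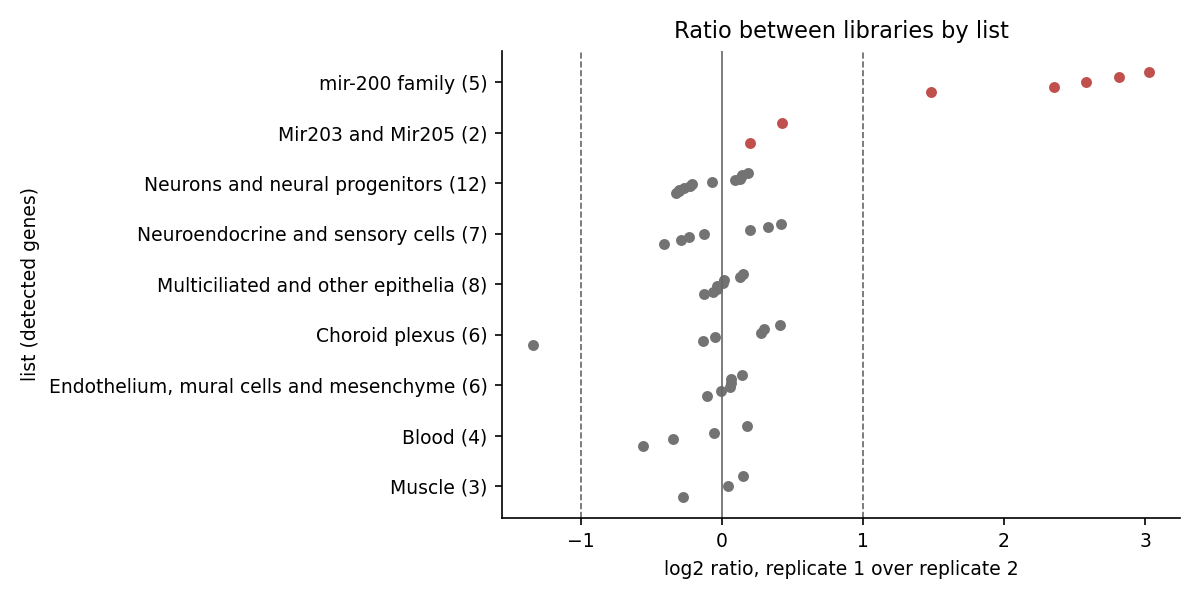
Log2 ratio of replicate 1 over replicate 2 for each detected gene, by list, with dashed lines at 2-fold and the number of detected genes in brackets. The mir-200 genes lie from 1.48 to 3.03, while the 46 detected genes of the other lists lie from -1.34 to 0.42.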

How the data were processed

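The authors deposited unnormalised read counts for miRNA genes, in 1 table per library, on mm10 with GENCODE annotation M4, per the description deposited beside the tables. Neither the aligner nor the counting program was given in the sources used here. Column sums show that the counts on the gene's strand and on the opposite strand add up to those on either strand. Rows naming no gene were left out of totals. Names and places came from GENCODE M21, on the same assembly, by gene identifier without version.

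CPM was computed as sense reads over summed sense reads, without length scaling, since reads come from mature strands of like length. Detection required 10 reads in both libraries. Ratios are replicate 1 over replicate 2. Intervals of levels and shares are exact binomial (Clopper-Pearson), and those of ratios are exact conditional binomial, in Python 3.11.15 with scipy 1.17.1. They cover counting error only, as PCR reads are not independent molecules. The ratio code was tested on simulated data. TMM factors (edgeR 4.0.16) and median-of-ratios size factors (DESeq2 1.42.0) served as alternatives, in R 4.3.3.

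No test was run, as there was 1 group and the genes were chosen with their values known. Genes and lists were chosen with earlier results of these data known. Named genes are the 7 members, the 2 highest of each list and the 5 others nearest in ratio. A few further list genes were named after their values were seen. The entries Mir9-1, Mir145 and Mir142 were not analysed here.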

Additional observations from a re-analysis of the deposited data

Results flagged for a closer look

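Opposite-strand reads were outside the comparisons above, and at Mir203 they passed the 3 reads that a count of 0 allows. There were 76 such reads in replicate 1, 1.93% of 3933 reads on either strand (exact 95% interval 1.53 to 2.41), and 65 in replicate 2, 2.19% of 2965 (1.70 to 2.79). Over all miRNA genes the opposite strand held 2.56% of reads on either strand in replicate 1 and 2.49% in replicate 2, so the share at Mir203 was not above that of the tables as a whole. More than 3 such reads in both libraries were counted at only 21 of the 1973 genes, Mir203 among them. The pooled share is therefore not a level typical of single genes. Of the 7 genes described, the other 6 had 0 opposite-strand reads in both libraries, except 1 read at Mir200a in replicate 2. RefSeq places a second miRNA gene, Gm51289 (mir-203b), on the minus strand inside the Mir203 locus, with mature strands across from those of Mir203. They are shown, seed in capitals, as the annotated products of that strand.

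miR-203b-5p: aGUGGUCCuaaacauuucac
miR-203b-3p: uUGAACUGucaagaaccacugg

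Whether the opposite-strand reads came from these strands was not tested, since the counts carry no sequence.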

How the results depend on the processing

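The summed level of the 7 genes, 1008 CPM on average, was 451 CPM with all reads in the tables as the total. Leaving out a library gave 689 CPM without replicate 1 and 1327 CPM without replicate 2. With a minimum of 50 reads in both libraries, 3 genes (Mir429, Mir200b and Mir200c) were called at 2-fold, and these were all the genes called higher, of 309 tested, as Mir200a and Mir141 did not reach the minimum. At 3-fold, 4 of the mir-200 genes were called, without Mir200c, and these were all the genes called higher. Under all other alternatives with a ratio 5 were called. With no minimum, 129 of 750 genes with any read were called higher, 28 of 411 at 1.5-fold, and 5 of 411 with 5 reads added in the ratio, against 8 of 411 as reported. TMM factors moved the median of detected genes to 0.01 and the ratio of Mir203 to 0.15 on the log2 scale, and no ratio of the 7 genes turned its direction under any alternative that gave one. Ratios could not be computed with 1 library left out. No paired analysis was possible because there was 1 group. Precision was limited by the 18 and 20 reads of Mir141 and Mir200a in replicate 2.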
